A study of Mus musculus with 6 samples.

Results

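Acyl-CoA thioesterases are the enzymes that split a fatty acyl-CoA into a free fatty acid and coenzyme A. The 9 genes described here (Acot1, Acot2, Acot4, Acot7, Acot8, Acot9, Acot11, Acot13 and Them4) were taken by gene name from a table of 46450 genes. Acot1 and Acot2 were chosen because their transcripts were lower in TFEB-/- cells in these same data, so their difference is given as a description, with no test. The other 7 were taken as relatives, and their differences were tested. Poly(A) RNA was measured in adult cardiomyocytes isolated from hearts of C57BL/6 mice aged 3 months, in 3 TFEB-/- and 3 wild-type (WT) libraries. TFEB, a basic helix-loop-helix factor, is known as an activator of lysosomal and autophagy genes. How the gene was disrupted, in which cells, and the sex of the animals are not given in the sources used here. The libraries are separate samples by their labels, but separate animals are not stated, so the p-values measure the spread between these libraries. Values are CPM, counts relative to the size of the library, rounded to whole numbers by the authors, so the reads behind a value are unknown and each value is known to 0.5 CPM on either side.

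Fatty acids enter metabolism as acyl-CoA esters, made by acyl-CoA synthetases, and thioesterases run that step backwards in a given compartment. In the heart, which burns mainly fatty acids, they are known for limiting the build-up of acyl-CoA and for keeping coenzyme A free. Acot1 works in the cytosol and Acot2 in the mitochondrial matrix, and both are known targets of the nuclear receptor PPAR-alpha. Acot4 and Acot8 are peroxisomal enzymes. Acot7 is a cytosolic enzyme abundant in neurons, Acot9 and Them4 are mitochondrial, Acot11 is best known from brown fat, and Acot13 (also called Them2) is a small enzyme found at mitochondria and in the cytosol.

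Acot1 and Acot2 are neighbours and near copies of each other, which bears on how reads are divided between them. In GENCODE M21 on GRCm38 both lie on the plus strand of chromosome 12, Acot2 (ENSMUSG00000021226) at 83987861 to 83993873 and Acot1 (ENSMUSG00000072949) at 84009490 to 84018371, 15.6 kb apart. They open a cluster of 6 genes that spans 123.5 kb and continues with Acot4, Acot3, Acot5 and Acot6. The coding sequence of Acot1 has 419 codons and that of Acot2 453, and 95.3% of 1236 aligned bases were identical, with a longest identical run of 273 bases. The coding sequence of Acot2 carries 123 bases ahead of the start of Acot1, a part known to direct the protein into mitochondria. The first 150 coding bases of Acot1 and the aligned bases of Acot2, which begin at base 124 of its coding sequence, are shown to make the likeness visible, with the 13 differing bases in capitals.
Acot1: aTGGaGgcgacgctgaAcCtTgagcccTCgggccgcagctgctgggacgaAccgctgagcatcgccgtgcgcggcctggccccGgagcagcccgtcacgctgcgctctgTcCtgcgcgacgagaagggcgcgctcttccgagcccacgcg
Acot2: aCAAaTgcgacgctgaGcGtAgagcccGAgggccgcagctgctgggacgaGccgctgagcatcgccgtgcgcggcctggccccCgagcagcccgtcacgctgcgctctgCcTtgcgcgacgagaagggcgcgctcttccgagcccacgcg
Of the 31-base words of the longest Acot1 transcript, 59.9% occurred in no other gene's transcripts in GENCODE M21, and 62.5% of those of Acot2 did. The default of kallisto, the program in the name of the deposited table, is to match reads by words of 31 bases. Of the 75-base words, the length of a read, 73.6% of Acot1 and 78.8% of Acot2 were their own. Of the shared 31-base words, 845 of 898 for Acot1 and 751 of 813 for Acot2 occurred in other genes of the cluster, as did all shared 75-base words. Reads from such stretches fit both genes or other cluster members, so the split between Acot1 and Acot2 is less certain than their sum.

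The sequences ahead of the start sites are given because Acot1 and Acot2 were both lower although their upstream sequences are not alike. They are 250 bases long, on the plus strand, from RefSeq on GRCm38.p6 (chr12:84009252-84009501 for Acot1 and chr12:83987611-83987860 for Acot2).
Acot1: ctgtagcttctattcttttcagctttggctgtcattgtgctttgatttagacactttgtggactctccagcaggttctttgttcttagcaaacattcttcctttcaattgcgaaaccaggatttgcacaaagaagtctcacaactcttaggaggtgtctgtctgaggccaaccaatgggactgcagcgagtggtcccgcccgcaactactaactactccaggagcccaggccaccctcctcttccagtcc
Acot2: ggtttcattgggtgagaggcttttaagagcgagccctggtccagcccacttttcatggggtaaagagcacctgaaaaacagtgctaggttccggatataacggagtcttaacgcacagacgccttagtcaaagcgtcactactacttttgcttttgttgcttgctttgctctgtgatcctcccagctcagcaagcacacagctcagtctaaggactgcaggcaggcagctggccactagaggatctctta
The longest run of bases that both share is 9 bases, in contrast to the coding part. The GC content is 48.8% for Acot1 and 50.4% for Acot2. Neither holds the core E-box CACGTG, which TFEB and related factors are known to bind, nor AGGTCANAGGTCA, a strict form of the element bound by PPAR-alpha with RXR. Both strands were searched. CACGTG was found upstream of 6.86% of 27025 genes and AGGTCANAGGTCA upstream of 0.0407%. Among the 8 members with an upstream sequence in the table, CACGTG was present for Acot4 and Acot11, the longer GTCACGTG (2.11% of genes), which contains CACGTG, for none, and AGGTCA (15.8% of genes), the motif that the PPAR element repeats, for Acot4. The Acot11 match lies at one of its annotated starts (chr4:106799832-106800081, minus strand), 154 bases ahead of it, and is in capitals here because Acot11 is described further on.
Acot11: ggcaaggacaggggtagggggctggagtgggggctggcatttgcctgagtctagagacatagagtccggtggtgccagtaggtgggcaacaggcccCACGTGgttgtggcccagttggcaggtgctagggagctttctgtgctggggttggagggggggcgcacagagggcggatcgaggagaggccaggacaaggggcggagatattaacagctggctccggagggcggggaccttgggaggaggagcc
A match or its absence describes only the letters in these windows.

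Acot1 was the member with the largest difference between the genotypes. Acot1 stood at 1, 2 and 2 CPM in the 3 TFEB-/- libraries, against 11, 9 and 8 CPM in the WT libraries. The groups did not overlap, as held for 2.28% of all tested genes with TFEB-/- lower on the deposited scale. In the rounded values every WT library held at least 6 CPM more than any TFEB-/- library. Acot1 averaged 1.67 ± 0.577 CPM in TFEB-/- and 9.33 ± 1.53 CPM in WT (SD, n = 3 each), a log2 fold change of −2.21 on log2(CPM + 0.5). On the means WT was 5.6-fold higher, and rounding alone allows from 4.08-fold to 8.43-fold. Of 12437 genes tested, 0.0804% had a log2 fold change at or below that of Acot1 and 2.07% one at or below that of Acot2, places that follow from how both genes were chosen.

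Acot2 was lower by a smaller factor at a higher level. It stood at 30, 38 and 40 CPM in TFEB-/- and at 57, 52 and 59 CPM in WT, again with no overlap. The means were 36.0 ± 5.29 CPM in TFEB-/- and 56.0 ± 3.61 CPM in WT, 35.7% lower in TFEB-/- (log2 fold change −0.64). After rescaling every library by a median ratio, the log2 fold change was −0.88 for Acot2 and −2.41 for Acot1. The groups of both genes again did not overlap, as held for 11.8% of all tested genes with TFEB-/- lower after rescaling. The scale matters because the log2 fold changes of all genes had a median of 0.24 on the deposited scale and of 0.0053 after rescaling. Relative to that median, Acot1 lay at −2.45 and Acot2 at −0.87 on the deposited scale.

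Taken as a pair, which does not depend on how reads were divided between them, Acot1 and Acot2 summed to 31, 40 and 42 CPM in TFEB-/-, against 68, 61 and 67 CPM in WT. The sums averaged 37.7 ± 5.86 CPM in TFEB-/- and 65.3 ± 3.79 CPM in WT, a log2 fold change of −0.80, so the pair was lower by more than Acot2 alone and by far less than Acot1 alone. Acot1 supplied 3.23%, 5.0% and 4.76% of the pair in TFEB-/- and 16.2%, 14.8% and 11.9% in WT. Its share was thus lower in every TFEB-/- library. Unlike the sum, the share depends on how reads were divided. In TFEB-/- it also rests on Acot1 values of 1, 2 and 2 CPM, each known only to 0.5 CPM on either side. The sum over Acot1 to Acot6 gave nearly the same values, at 32, 42 and 44 CPM in TFEB-/- and 71, 64 and 69 CPM in WT.

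The rest of the chromosome 12 cluster stood at 0 to 2 CPM in these cells. Acot4, a peroxisomal enzyme that acts on succinyl-CoA and other dicarboxylic acyl-CoAs, was listed at 0 in all 6 libraries and could not be tested. Acot5 was listed at 0 as well. Acot3, a peroxisomal relative, was listed at 0 in all TFEB-/- libraries and at 1, 1 and 0 CPM in WT. Acot6 stood at 1, 2 and 2 CPM in TFEB-/- and at 2 CPM in each WT library, a difference of 1 rounding step in 1 library (limma adjusted p = 0.515). Within the cluster, Acot2 and Acot1 were thus the only genes above 2 CPM in any library.

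**Figure D1:**
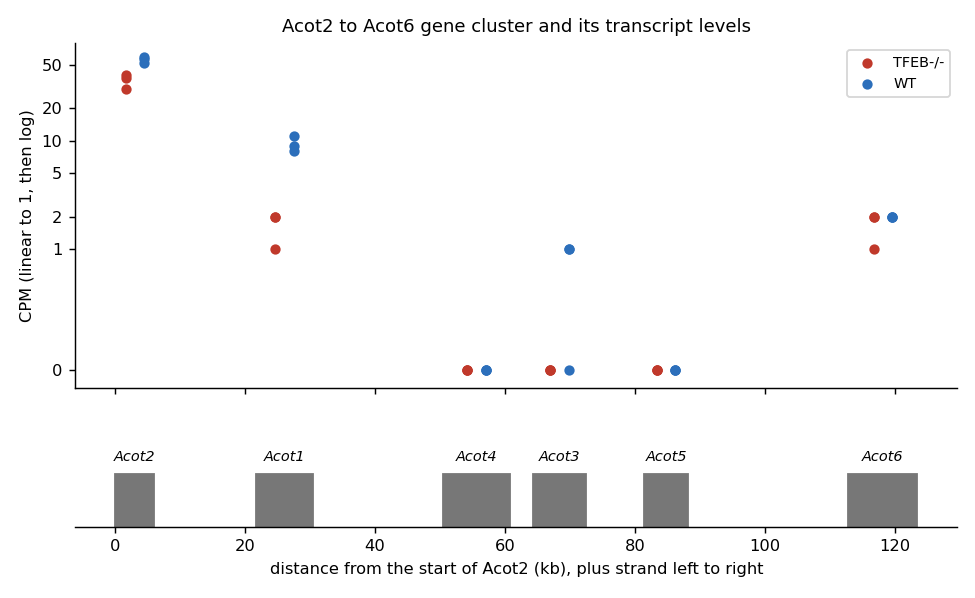
The 6 genes of the cluster drawn to scale by distance in kb from the start of Acot2 (lower panel), with the CPM of each library above them (TFEB-/- red, WT blue, an axis that is linear to 1 CPM and logarithmic above). In TFEB-/- only Acot2 stands above 2 CPM and Acot1 lies at the level of Acot6, while in WT both Acot2 and Acot1 stand above the other 4 genes.

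None of the members that had not been chosen for their values passed the test between genotypes. Of these 7, the 6 with at least 1 CPM in 3 libraries were tested with limma. At a threshold of 0.05 for the adjusted p, 0 were higher and 0 lower, where 3.92% of all tested genes were higher and 0.523% lower. These shares include genes with almost no spread between replicates in the rounded values. An example is Abcc3 (log2 fold change 1.58 with an SE of 0.019, limma adjusted p = 9.9e-07). How many such genes they include was not counted. The unadjusted p was below 0.05 for 2 of the 6, Acot8 and Acot11, against 23.3% of all tested genes, and both were higher in TFEB-/-. With median-ratio scaling it was below 0.05 for a different 2 of the 6, Acot7 and Them4, both lower in TFEB-/-, against 22.3% of all tested genes. The intervals that follow are 95% intervals of limma for the fold of TFEB-/- over WT, on log2(CPM + 0.5), and a p above the threshold does not show that the genotypes are alike.

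On the deposited scale Acot11 had the largest log2 fold change of these 6 in size, with higher values in TFEB-/-, whereas with median-ratio scaling those of Them4, Acot7 and Acot9 were larger in size, with lower values in TFEB-/-. Acot11 stood at 29, 24 and 23 CPM in TFEB-/- and at 21, 17 and 20 CPM in WT, and the groups did not overlap, as held for 21.2% of all tested genes in this direction. The means were 25.3 ± 3.21 CPM in TFEB-/- and 19.3 ± 2.08 CPM in WT (log2 fold change 0.38 with an SE of 0.13, limma adjusted p = 0.177). The interval ran from 1.03-fold to 1.64-fold. After median-ratio scaling the groups overlapped and the log2 fold change was 0.15 (adjusted p = 0.565). On the deposited scale the log2 fold change was 0.14 relative to the median of all genes. Exons of Fam151a on the opposite strand overlap 20.9% of the exon bases of Acot11, and Fam151a was listed at 0 in all libraries.

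Acot8, which acts on many acyl-CoAs in peroxisomes, stood at 7, 6 and 7 CPM in TFEB-/- and at 5, 6 and 5 CPM in WT. The groups shared the value 6, and the difference was about 1 rounding step (log2 fold change 0.30 with an SE of 0.11, limma adjusted p = 0.185). The interval ran from 1.02-fold to 1.49-fold, and after median-ratio scaling the log2 fold change was 0.077. Exons of Snx21 on the opposite strand cover 12.3% of the exon bases of Acot8. Snx21 stood at 37, 27 and 27 CPM in TFEB-/- and at 30, 29 and 19 CPM in WT, and whether the authors' values keep the strands apart is not given in the sources used here.

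Acot13 had the highest CPM of all members, and its difference between the genotypes was smaller than the spread in WT. It stood at 245, 239 and 240 CPM in TFEB-/- and at 242, 248 and 191 CPM in WT. The means were 241.3 ± 3.21 CPM in TFEB-/- and 227.0 ± 31.3 CPM in WT, with most of the spread from WT library 3 (log2 fold change 0.098 with an SE of 0.12, adjusted p = 0.62). The interval ran from 0.87-fold to 1.32-fold. WT library 3 also had the highest share of mitochondrial transcripts, 44.6%, against 30.7% and 33.9% in the other WT libraries and 22.2%, 30.3% and 25.3% in TFEB-/-. Without mitochondrial transcripts in the total, Acot13 stood at 315.1, 342.9 and 321.4 CPM in TFEB-/- and at 349.6, 375.4 and 345.2 CPM in WT, and the sign of the log2 fold change turned to −0.13 (adjusted p = 0.417).

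Acot7 stood at 51, 53 and 57 CPM in TFEB-/- and at 58, 66 and 50 CPM in WT. The TFEB-/- values lay inside the range of WT (log2 fold change −0.10, standard error 0.12, adjusted p = 0.606, interval 0.753-fold to 1.15-fold). After median-ratio scaling the groups separated, with TFEB-/- lower in all 3 libraries (log2 fold change −0.34, adjusted p = 0.172), where 11.8% of all tested genes were separated in that direction. Them4, a mitochondrial thioesterase also known as a regulator of the kinase Akt, stood at 9, 9 and 7 CPM in TFEB-/- and at 11, 10 and 8 CPM in WT, overlapping at 8 to 9 CPM (log2 fold change −0.20 with an SE of 0.16, adjusted p = 0.492, interval 0.651-fold to 1.16-fold). Rescaled, its groups did not overlap and the log2 fold change was −0.43 (adjusted p = 0.123).

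Acot9, a mitochondrial enzyme, stood at 13, 19 and 17 CPM in TFEB-/- and at 17, 16 and 15 CPM in WT. The TFEB-/- libraries surrounded the WT libraries (log2 fold change 0.014 with an SE of 0.16, adjusted p = 1.0, interval 0.764-fold to 1.33-fold), and with median-ratio scaling the log2 fold change was −0.22 (adjusted p = 0.55). Acot10, which shares 36.9% of the 31-base words of Acot9, was listed at 0 in every library.

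**Figure D2:**
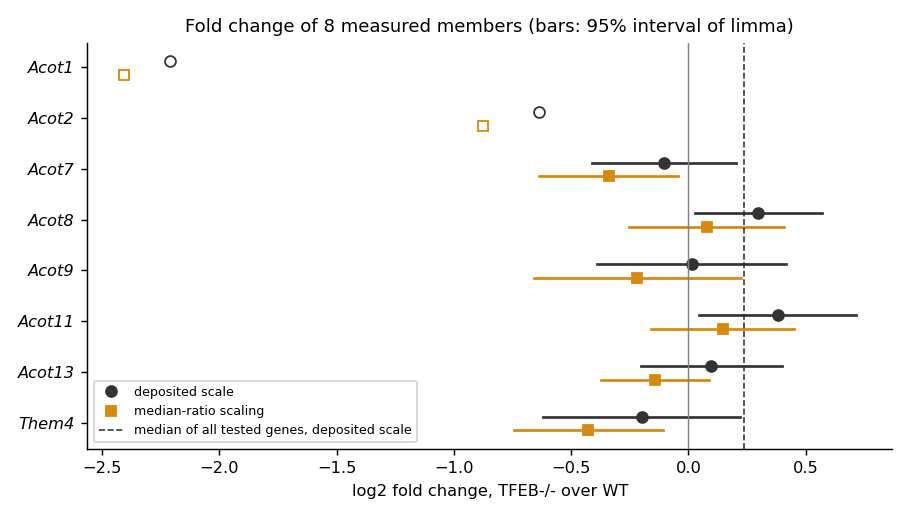
Log2 fold change of TFEB-/- over WT for the 8 genes above the limit for testing, on the deposited scale (black circles) and with median-ratio scaling (orange squares), with 95% intervals of limma; Acot1 and Acot2 were chosen on this difference and are drawn open, without intervals. Acot1 at −2.21 and Acot2 at −0.64 lie apart from the other 6 genes, which run from −0.20 to 0.38 on the deposited scale around the median of all genes at 0.24 (dashed).

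Seen together, the 7 genes other than Acot1 and Acot2 summed to 354, 350 and 351 CPM in TFEB-/- and to 354, 363 and 289 CPM in WT, and Acot13 made up most of that sum. All 9 genes summed to 389.3 ± 4.04 CPM in TFEB-/- and 400.7 ± 38.7 CPM in WT. Acot2 supplied 9.24 ± 1.27% of the 9-gene sum in TFEB-/- and 14.1 ± 2.22% in WT, and Acot1 supplied 0.427 ± 0.145% in TFEB-/- and 2.33 ± 0.251% in WT. These sums count fragments and weigh long transcripts more than short ones.

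Levels can be set against each other between genes only per length, and on that scale Acot13 stood far above its relatives. Divided by the longest protein-coding transcript of each gene, Acot13 (721 bases) reached 334.7 ± 4.46 CPM per kb in TFEB-/- and 314.8 ± 43.4 CPM per kb in WT. Acot7 followed at 35.7 ± 2.03 CPM per kb in TFEB-/- and 38.5 ± 5.32 CPM per kb in WT, then Acot2 at 16.4 ± 2.41 CPM per kb in TFEB-/- and 25.5 ± 1.64 CPM per kb in WT, and Acot9 at 9.32 ± 1.74 CPM per kb in TFEB-/- and 9.13 ± 0.571 CPM per kb in WT. The ranges of these 4 genes did not overlap in either group. In WT the next 4 genes, Them4, Acot8, Acot1 and Acot11, lay between 5.43 and 3.40 CPM per kb, and each overlapped the next in its range. In TFEB-/- the order below Acot9 was Acot8, Them4, Acot11 and Acot1, of which Them4 and Acot11 overlapped, and Acot1 was last at 0.734 ± 0.254 CPM per kb. The places of Acot11 and Acot1 depend on the transcript taken. The longest of Acot11 has 5689 bases, and with the median length of its coding transcripts it reached 14.3 CPM per kb in TFEB-/- and 10.9 CPM per kb in WT, overlapping Acot2 in TFEB-/- and Acot9 in WT. With the median length Acot1 reached 1.15 CPM per kb in TFEB-/-, still below the other genes above 0, and 6.45 CPM per kb in WT, above Them4 and Acot8 on average and overlapping Them4.

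**Figure D3:**
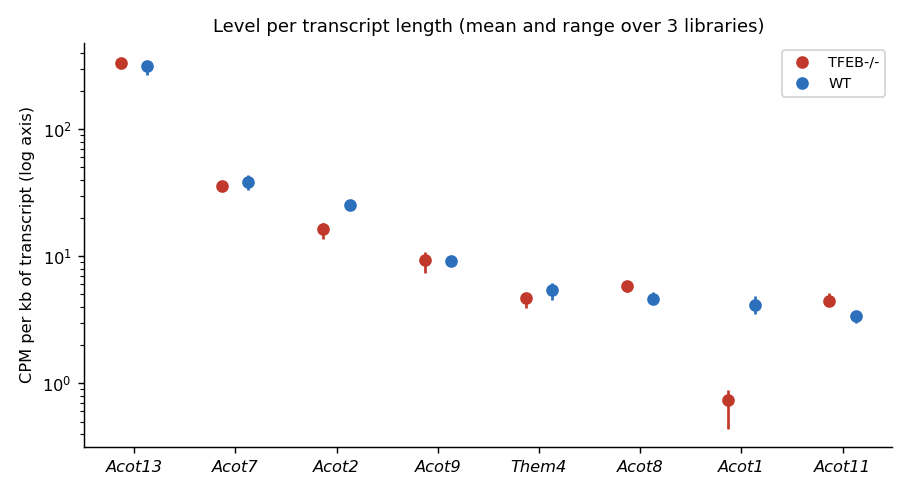
CPM per kb of the longest protein-coding transcript on a log axis, TFEB-/- in red left of WT in blue, with the mean as a point and the range over 3 libraries as a line. Acot13 is the highest in both groups, and Acot1 in TFEB-/- is the lowest point drawn at 0.734 CPM per kb, since Acot4, listed at 0, is not on the log axis.

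The related genes of acyl-CoA metabolism gave no call in either direction. In 8 lists of 90 genes, 77 were tested with limma, of which 0 passed as higher and 0 as lower, where 3.92% of all tested genes were higher and 0.523% lower. An unadjusted p below 0.05 was found for 12 of the 77, where 23.3% of all tested genes had one. With median-ratio scaling 1 was higher and 3 lower, where 3.87% of all tested genes were higher and 1.61% lower. The higher gene was Acsf2, a mitochondrial acyl-CoA synthetase, at 103, 108 and 130 CPM in TFEB-/- and 69, 46 and 47 CPM in WT, with a rescaled log2 fold change of 0.85 (adjusted p = 0.0293). The lower genes were Acsm5, Mlycd and Ppargc1a. All 4 are named because they passed under this scaling, after their values were seen.

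Acyl-CoA synthetases, which catalyse the opposite step, ran from a log2 fold change of −2.74 to one of 1.08. Of 15 genes 12 were tested, with a median log2 fold change of 0.048 beside 0.24 for all genes tested. Acsm5, a medium-chain synthetase of mitochondria, stood at 0, 0 and 1 CPM in TFEB-/- and at 4, 4 and 5 CPM in WT, a difference at low level that missed the threshold on the deposited scale (adjusted p = 0.0555) and passed when rescaled (adjusted p = 0.014). Acsl1, the main long-chain synthetase of the heart, stood at 475, 505 and 500 CPM in TFEB-/- and at 724, 535 and 591 CPM in WT. The groups did not overlap, and the difference did not pass (log2 fold change −0.31 with an SE of 0.13, adjusted p = 0.227). Acss1, a mitochondrial acetyl-CoA synthetase, averaged 224.0 ± 24.3 CPM in TFEB-/- and 258.0 ± 54.3 CPM in WT (adjusted p = 0.522).

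Known PPAR-alpha targets, of which Acot1 and Acot2 are 2 further ones, gave no call on the deposited scale. Of 25 genes 24 were tested, 20 lay below the median of all genes, and their median log2 fold change was −0.035, or −0.27 relative to it. Fabp3, the fatty acid carrier of the heart muscle, averaged 3399 ± 187.3 CPM in TFEB-/- and 3459 ± 260.1 CPM in WT (adjusted p = 0.902). Hadhb, a subunit of the mitochondrial trifunctional protein, averaged 1671 ± 116.7 CPM in TFEB-/- and 1723 ± 162.9 CPM in WT (adjusted p = 0.824). Mlycd, which breaks down malonyl-CoA, stood at 73, 81 and 84 CPM in TFEB-/- and at 112, 109 and 98 CPM in WT (rescaled log2 fold change −0.66, adjusted p = 0.0246). Cd36 and Ucp3, named after their values were seen, had lower log2 fold changes than Acot2. Cd36, a fatty acid transporter of the cell surface, stood at 357, 583 and 475 CPM in TFEB-/- and at 813, 760 and 751 CPM in WT, with no overlap and no call (log2 fold change −0.74, adjusted p = 0.111). Ucp3, a carrier of the inner mitochondrial membrane, stood at 16, 47 and 29 CPM in TFEB-/- and at 33, 59 and 48 CPM in WT, and its groups overlapped (log2 fold change −0.69, adjusted p = 0.402).

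No gene of the receptors themselves passed the test on the deposited scale. The list held 9 genes, namely PPAR and RXR receptors, their coactivators and Hnf4a. All but Hnf4a, 8 genes, were tested, with a median log2 fold change of −0.021. Ppara stood at 8, 4 and 5 CPM in TFEB-/- and at 13, 2 and 5 CPM in WT, so its WT libraries spread over the whole range of both groups (adjusted p = 1.0). Rxra averaged 67.7 ± 8.14 CPM in TFEB-/- and 66.3 ± 6.03 CPM in WT, and Rxrg 58.0 ± 7 CPM in TFEB-/- and 63.7 ± 14.5 CPM in WT. The coactivator Ppargc1a stood at 20, 21 and 23 CPM in TFEB-/- and at 29, 41 and 27 CPM in WT, with no overlap (log2 fold change −0.57, adjusted p = 0.158; rescaled −0.80, adjusted p = 0.0457).

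The remaining 5 lists held no called gene under either scaling. Of 8 further acyl-CoA thioesterases only Acot6 and Them6 could be tested, and Acot12, Them5 and Baat were listed at 0. Them6 stood at 32, 25 and 13 CPM in TFEB-/- and at 9, 9 and 8 CPM in WT. Every TFEB-/- library was above every WT library, with a wide spread in TFEB-/- (log2 fold change 1.29 with an SE of 0.35, adjusted p = 0.119, interval 1.31-fold to 4.56-fold). Of 9 protein and lysosomal thioesterases 8 lay below the median of all genes, and the most abundant were the lysosomal enzymes Ppt1 and Ppt2. Ppt1 averaged 46.3 ± 7.51 CPM in TFEB-/- and 41.7 ± 10.7 CPM in WT, and Ppt2 45.3 ± 2.52 CPM in TFEB-/- and 39.0 ± 7.21 CPM in WT. Of 5 tested acyl-CoA binding proteins 2 lay below that median. Dbi averaged 96.0 ± 6 CPM in TFEB-/- and 83.7 ± 15.3 CPM in WT, and Acbd6 24.3 ± 3.79 CPM in TFEB-/- and 19.7 ± 2.08 CPM in WT. Of 12 tested genes of coenzyme A synthesis and breakdown 10 did, and the coenzyme A carrier Slc25a42 averaged 81.0 ± 10.5 CPM in TFEB-/- and 89.7 ± 7.37 CPM in WT, and the diphosphatase Nudt8 69.7 ± 10.1 CPM in TFEB-/- and 66.7 ± 12.2 CPM in WT. Of 8 genes of the carnitine shuttle 6 did. Its most abundant members were Cpt1b, the entry enzyme for long-chain acyl groups, with 627.0 ± 56.5 CPM in TFEB-/- and 638.7 ± 50.8 CPM in WT, and Crat, carnitine acetyltransferase, with 607.3 ± 32.7 CPM in TFEB-/- and 607.7 ± 77.1 CPM in WT.

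**Figure D4:**
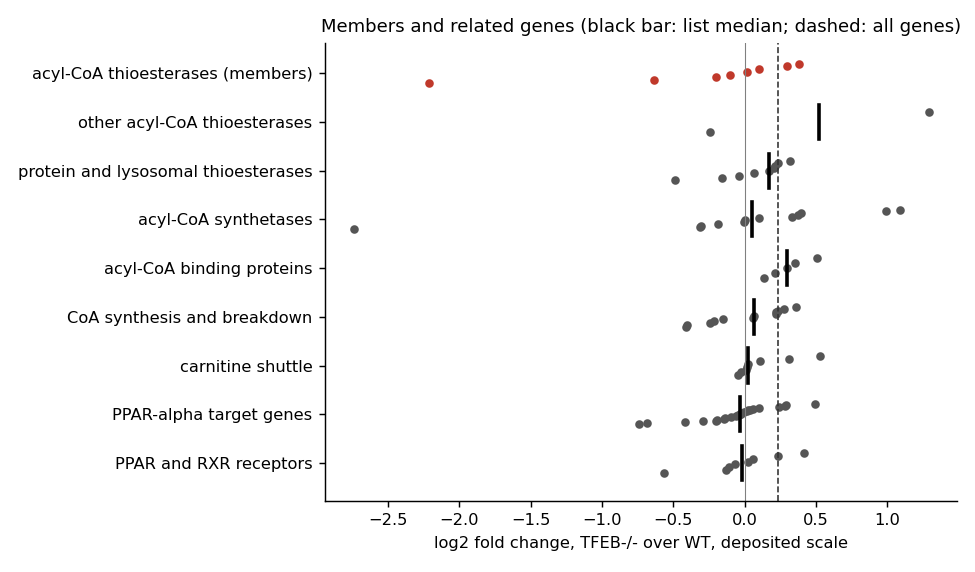
Log2 fold change of TFEB-/- over WT on the deposited scale for each tested gene of the members (red) and of the 8 related lists (grey), with the list median as a black bar and the median of all tested genes, 0.24, as a dashed line. Acot1 at −2.21 and Acsm5 at −2.74 lie far to the left of all other points.

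Genes whose values ran most like those of Acot1 and Acot2 over the 6 libraries were sought among 8577 genes that averaged 5 CPM or more, by the root mean square difference of their centred log2(CPM + 0.5) profiles. For Acot1 these were Gbp6 (a difference of 0.23), Ogdhl (0.25) and Pde7a (0.26). Gbp6, a guanylate-binding protein, stood at 1, 3 and 2 CPM in TFEB-/- and 15, 10 and 12 CPM in WT, and Ogdhl, a relative of the oxoglutarate dehydrogenase, at 25, 49 and 47 CPM in TFEB-/- and 141, 125 and 142 CPM in WT. For Acot2 they were Ptp4a1, a protein phosphatase, at 52, 72 and 70 CPM in TFEB-/- and 97, 88 and 100 CPM in WT (a difference of 0.055), Naa30 (0.087) and Egflam (0.10). With 6 libraries in 2 groups, such likeness is mostly the difference between the groups.

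The checks of the libraries touch these values as follows. Tfeb stood at 6, 5 and 7 CPM in TFEB-/- and at 17, 30 and 23 CPM in WT (log2 fold change −1.85, adjusted p = 0.0267, passed in 12 of 18 alternatives), so its transcript was lower in each library with the label TFEB-/-. Libraries summed to between 999505 and 999655 CPM. All 8 cardiomyocyte markers were measured, with sums of 50157 to 72509 CPM in TFEB-/- and 42672 to 58474 CPM in WT. Endothelial markers (8 of 8 above 0) summed to 238 to 266 CPM in TFEB-/- and 242 to 353 CPM in WT, and all 8 lay below the median of all genes. Fibroblast markers (6 of 6) summed to 111 to 149 CPM in TFEB-/- and 97 to 119 CPM in WT. Of them Pdgfra passed the test, at 3 CPM in each TFEB-/- library and 2 CPM in each WT library, a difference of 1 rounding step (adjusted p = 0.00336, and 0.336 with median-ratio scaling), and no other marker of any list passed. Macrophage markers (6 of 7, Ptprc at 0) summed to 21 to 26 CPM in TFEB-/- and 12 to 17 CPM in WT. Smooth muscle markers (4 of 4) summed to 186 to 251 CPM in TFEB-/- and 88 to 150 CPM in WT, adipocyte markers (2 of 5, with Plin1, Lep and Ucp1 at 0) to 28 to 42 CPM in TFEB-/- and 20 to 23 CPM in WT, and erythroid markers (3 of 4, Alas2 at 0) to 4 to 8 CPM in TFEB-/- and 3 to 32 CPM in WT. The sums of macrophage, smooth muscle and adipocyte markers did not overlap between the groups and were higher in TFEB-/-, while those of the other lists overlapped. The part of these cell types in the values of Acot1 and Acot2 was not tested. In such bulk samples fewer cells of a type and less RNA per cell cannot be told apart.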

How the data were processed

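The deposited values are a score: per the name of the authors' table, kallisto estimates in CPM, rounded by the authors to whole numbers. Per the submitters' processing notes, STAR, HISAT2, kallisto, Salmon, RSEM, StringTie, DESeq2, edgeR and GRCm38 were used, with no roles or versions. Per the labels' protocols, libraries were made from 400 ng of RNA with a stranded TruSeq mRNA kit and read as pairs of 75 bases. Depth per library is not known, since the total number of read pairs in the labels is more than 6 libraries of the sizes they state can hold. Hence no counting interval is given.

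Through Ensembl IDs, 26 names that a spreadsheet had made into dates were recovered, IDs stand in for 303 absent names, and values of the same symbol were summed. The 12437 genes that reached 1 CPM in 3 or more libraries were fitted with limma 3.58.1 in R 4.3.3 on log2(CPM + 0.5), by lmFit and eBayes with a mean-variance trend and no term besides genotype. P-values are two-sided, with Benjamini-Hochberg adjustment over all tested genes. Count models were not used, as the values are not counts. The fit was tested on simulated data.

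The members and lists were chosen with earlier results of these data known. Named genes are the members, Tfeb, the close paralogs, list genes past the threshold (otherwise the 2 most abundant) and the 3 genes most like Acot1 and Acot2. Annotation, transcript words and overlaps are from GENCODE M21, upstream sequences from RefSeq, and the coding alignment was made with Biopython 1.88. Alternatives covered scaling, pseudocount, filter, empirical Bayes, rounding, left-out libraries, a replicate block, transcript length and sums of paralogs.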

Additional observations from a re-analysis of the deposited data

How the results depend on the processing

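In 18 alternatives of the fit, the count of called members among those not chosen on their values stayed at 0 higher and 0 lower. Acot4, listed at 0, could not be tested in any of them. The limma adjusted p-values of the other 6 ran from 0.103 to 1.0. Acot1 stayed lower in all 18, with a log2 fold change of −2.50 to −1.96, and Acot2 in all 18, with −0.89 to −0.51. Both were chosen for this difference, so these ranges describe it and are no further support. The filter, the empirical Bayes settings and the replicate block cannot change the log2 fold change of any member. They bear only on its test. Leaving out 1 library gave −2.33 to −1.96 for Acot1 and −0.72 to −0.51 for Acot2. The value of Acot2 moved beyond the replicate spread with median-ratio scaling, with or without the replicate block (−0.88), with quantile normalization (−0.89) and in CPM without mitochondrial transcripts (−0.87). Acot7, Acot8, Acot11 and Them4 kept their sign in all 18. Leaving out 1 library gave −0.21 to −0.0065 for Acot7 (nearest 0 without WT replicate 2), −0.32 to −0.087 for Them4, 0.26 to 0.38 for Acot8 and 0.28 to 0.44 for Acot11. The sign of Acot9 turned with median-ratio scaling, with or without the block (−0.22), quantile normalization (−0.24), CPM without mitochondrial transcripts (−0.21), and without TFEB-/- replicate 2 (−0.10), TFEB-/- replicate 3 (−0.022) or WT replicate 3 (−0.030), within −0.10 to 0.16 when any 1 library was left out. That of Acot13 turned with median-ratio scaling, with or without the block (−0.14), quantile normalization (−0.12), CPM without mitochondrial transcripts (−0.13) and without WT replicate 3 (−0.022), within −0.022 to 0.17 when any 1 library was left out. The cause was not tested.

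The replicate numbers were not taken as pairs, since the labels give no factor besides genotype. Libraries of the same number had correlations of 0.14, −0.049 and 0.088 in their deviations from the group means. Those of different numbers had −0.18 to 0.10, and so few values cannot show whether the libraries are paired. With the number as a block, log2 fold changes are the same by design, since both groups hold the same numbers, and only the tests can differ. None of the members not chosen on their values was called, and calls over all genes went to 159 higher and 26 lower, against 487 and 65. Calls of lower genes were 200 with median-ratio scaling, 172 with quantile normalization and 188 without mitochondrial transcripts. Calls of higher genes were 780 with robust hyperparameters, 778 with rounding noise, 270 without WT replicate 2, 248 without WT replicate 3 and 272 without TFEB-/- replicate 3. Tfeb lost its call with the block and without WT replicate 2, WT replicate 3 or any 1 TFEB-/- library (adjusted p up to 0.112). Them6 passed in 4 of 18 alternatives (adjusted p = 0.0114 to 0.279). Rounding to 1 CPM limits Acot1, Acot8 and Them4 most.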
